A study of Homo sapiens with 58 samples.

Results

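The genes described here lie on the long arm of human chromosome 17, on the side of ERBB2 that faces away from the centromere. They are the 10 genes IKZF3, GSDMA, THRA, NR1D1, CASC3, WIPF2, CDC6, RARA, TOP2A and SMARCE1, in this order along 17q, out of 19798 genes with a probe set (a group of probes read as 1 value) that names a single gene. They were chosen by position as genes at the edge of the 17q12-q21 amplicon, and a gene with several such probe sets was represented by the one with the highest mean. All 10 were detected, which means above the median of the array in at least 3 of 50 units (defined in the next paragraph), and none was lost to this filter. Because the build behind the probe set annotation was not stated, the order is that of a RefSeq gene table (GRCh38.p14) and no gene positions are given.

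The samples were 58 human cell lines labelled as breast cancer, without treatment or groups, each measured on 1 array of labelled total RNA. This label does not set apart immortalised mammary epithelial lines, which the panel also holds. There were no replicates, so the tests use the spread between lines and the number of arrays limits the precision. For MT3 and for MDAMB435S with its derivatives M4A4 and NM2C5, an origin outside the breast has been reported. Lines of common origin were averaged into 1 unit for tests and for each gene's median over units. This gave 50 units, since 14 lines fell into 6 sets, among them AU565 with SKBR3, EFM192A with EFM192B and EFM192C, and VP229 with VP267. The epithelial markers EPCAM and KRT19 were above the array median in 53 lines each, KRT18 in 58 and CDH1 in 46. The leukocyte markers CD79A, MS4A1, CD3E and PTPRC were above it in 0 lines.

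Amplification copies a stretch of chromosome many times, and transcripts of genes inside the stretch often rise with the number of copies. In breast cancer the stretch around ERBB2, the gene of the receptor HER2, is the classic case: a core of neighbours is copied with it in most amplified tumours, and the stretch ends at different places in different tumours. The genes on its far side are of clinical interest because they include TOP2A, which encodes the target of anthracyclines, and RARA, which encodes a retinoic acid receptor. Copy number was not measured here, so the extent given below is that of RNA levels. RNA was taken from whole cultures, in which fewer cells with a transcript and less RNA per cell cannot be told apart.

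ERBB2 had a median of 10.91 over units on the log2 intensity scale. A line was called ERBB2-high if ERBB2 was at least 2 log2 units, or 4-fold, above this median, at 12.91 or more. This held for 13 lines in 10 units (9 if OCUBF and OCUBM, whose names may point to 1 origin, are joined), and the other 45 lines were below it. The lowest ERBB2-high line was MDAMB453 at 13.26, the highest was AU565 at 13.70, and the highest line outside was VP229 at 12.65. ERBB2 had 1 probe set, and its levels in these 13 lines lay close together. Whether its probes were saturated there was not tested. A gene was called high in a line if it was at least 1 log2 unit, or 2-fold, above its own median over units, and low if at least 1 below. Counts of high lines below take each line singly. So do the lowest, median and highest levels of the ERBB2-high and of the other lines, which are not over units.

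The edge genes were high in some ERBB2-high lines and not in others, and the number of high genes set these lines apart from each other. In all, 41 of 130 pairs of an edge gene and an ERBB2-high line were high, or 31.5%, against 10.8% of the pairs of any detected gene with these lines. In the other 45 lines 34 of 450 pairs were high, or 7.56%, against 11.2% for any detected gene. These shares are a description, since with 1 array per line no test was made of them. They count lines of common origin singly, so such lines weigh more than 1 unit would.

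AU565 and EFM192C had 7 high edge genes each, where 10.8% and 11.9% of all detected genes were high in those lines. UACC893 had 6 (12.6% of all detected genes), SKBR3 had 5 (9.28%), EFM192A had 5 (12.3%) and OCUBM had 4 (12.5%). These 6 lines belong to 4 units, because AU565 shares its origin with SKBR3, and EFM192A with EFM192C.

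At the other end, HCC1569 and MDAMB453 had 0 high edge genes, where 11.1% and 10.3% of all detected genes were high. ZR7530 (9.22%), OCUBF (10.1%) and MDAMB361 (12%) had 1 each, which was IKZF3 in the first 2 of these and GSDMA in MDAMB361. HCC1954 (8.05%) had 2, IKZF3 and GSDMA, and EFM192B (10.5%) had 2, CASC3 and RARA. A low count of edge genes did not always go with few high neighbours. Of 23 other detected genes of the region, on either side of ERBB2, 15 were high in EFM192B and 12 in OCUBF. There were 14 in AU565, 9 in HCC1954, 8 in MDAMB361, 7 in ZR7530, 6 in MDAMB453 and 3 in HCC1569. Farther out than GSDMA, PSMD3 and MSL1 were 1.82 and 1.42 log2 units above their medians in EFM192B, and 1.18 and 1.15 in OCUBF. GSDMA in MDAMB361, at 5.32, was below the array median of 5.44, and so was GSDMA in UACC893, at 4.84. With high levels counted only above the array median, 39 of 130 pairs were high (30.0%), where 10.3% of the pairs of any detected gene were.

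The genes next to ERBB2 were high in more of these lines, with exceptions. MIEN1, a neighbour with a role in cell migration, and GRB7, an adaptor protein that binds HER2, were high in 13 of 13 ERBB2-high lines. PGAP3, an enzyme that remodels lipid anchors, and STARD3, a cholesterol transporter, were high in 12 of 13. Between those 2 genes TCAP, which encodes a muscle protein, was high in only 3 of 13 lines and PNMT, which encodes the enzyme that makes adrenaline, in 6. Moving outwards on the far side, GSDMB and ORMDL3 were high in 10 of 13, PSMD3 in 7 and MED24 in 5, and MSL1, which lies between NR1D1 and CASC3, in 7.

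Among the edge genes themselves the count did not fall steadily with distance. IKZF3 and GSDMA were high in 6 of 13 ERBB2-high lines, THRA in 4, NR1D1 in 1, CASC3 and WIPF2 in 6, CDC6 in 3, RARA in 6, TOP2A in 0 and SMARCE1 in 3. Of all detected genes, 6.12% were high in at least 6 of these lines, 21.1% in at least 3 and 49.1% in at least 1.

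**Figure D1:**
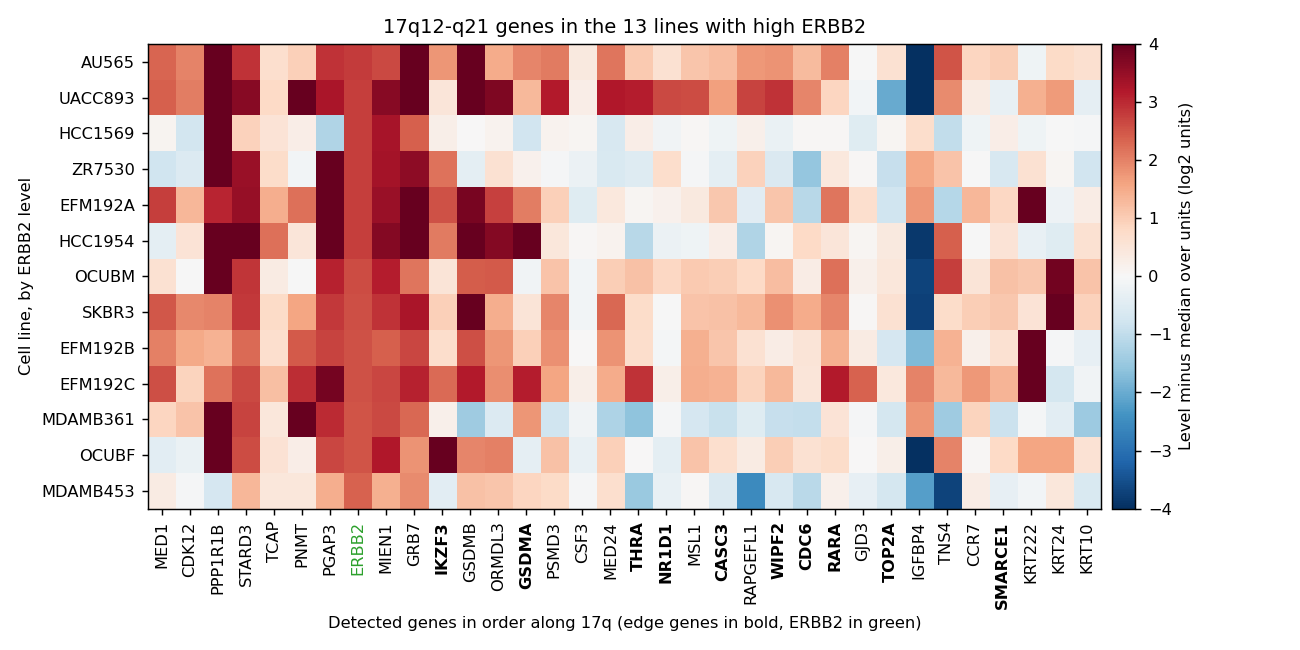
Level of each detected gene of the 17q12-q21 region in the 13 ERBB2-high lines, as the difference from the gene's median over 50 units in log2 units (colour, limited to 4 in either direction), with genes in order along 17q and lines by ERBB2 level. MIEN1 and GRB7 are high in all 13 lines, whereas the edge genes in bold are high in up to 7 per line, as in AU565 and EFM192C, and in none in HCC1569 and MDAMB453.

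Single lines differed in where high levels ended. In UACC893 THRA was 3.14 log2 units above its median, NR1D1 2.65, CASC3 1.65, WIPF2 2.89 and CDC6 1.96, and each of these 5 levels was the highest of the 58 lines. Further out in the same line RARA was 0.86 above its median and SMARCE1 was 0.28 below, and TOP2A was 2.03 below, the second lowest level of the 58 lines. Among the edge genes the run of high levels in UACC893 thus ended at CDC6, and farther out the genes TNS4 (1.88 above its median), KRT222 (1.42) and KRT24 (1.69) were past the threshold again, of which KRT222, at 4.13, and KRT24, at 5.31, were still below the array median of 5.46.

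SKBR3 was high for CASC3 (1.17), WIPF2 (1.82), CDC6 (1.49), RARA (1.95) and SMARCE1 (1.06), each as log2 units above the median. AU565, of the same origin, was high for IKZF3 (1.78), GSDMA (1.96) and THRA (1.05), which were at 0.94, 0.51 and 0.73 in SKBR3, and like SKBR3 for CASC3 (1.24), WIPF2 (1.81), CDC6 (1.25) and RARA (2.02), and its SMARCE1 was just under the threshold at 0.998. TOP2A, between RARA and SMARCE1, was 0.60 above its median in SKBR3 and 0.61 in AU565. Neither value reaches a 2-fold difference.

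OCUBM was high for THRA (1.17 log2 units above the median), WIPF2 (1.23), RARA (2.20) and SMARCE1 (1.16), with CASC3 at 0.97 and CDC6 at 0.30. In HCC1954 GSDMA, at 8.14, was 4.60 log2 units above its median, while CASC3, WIPF2, CDC6 and RARA were 0.26, 0.07, 0.80 and 0.49 above theirs, and TNS4, beyond TOP2A, was 2.38 above its own. MDAMB361 had the lowest CASC3 (10.94) and the lowest WIPF2 (9.47) of the 58 lines, together with an ERBB2 of 13.43. Thus a line within the ERBB2-high set also marked the bottom of the range of 2 edge genes.

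The 3 lines EFM192A, EFM192B and EFM192C share an origin, and their edge patterns were alike only in part. With the probe sets used, CASC3 and RARA were high in all 3 lines. The range over these lines was 0.29 log2 units for NR1D1, 0.32 for CASC3 and 0.74 for SMARCE1. For the other edge genes it lay between 1.01 for WIPF2 and 2.79 for THRA. THRA was 8.51, 9.12 and 11.30, RARA was 9.45, 8.73 and 10.48, and CDC6 was 10.11, 11.73 and 11.71 in the 3 lines in this order. The THRA pattern depended on the probe set. It was 8.32, 9.04 and 11.09 in another probe set, but 6.36, 8.30 and 8.52, and 3.70, 5.45 and 5.80, in the remaining ones. In these last, EFM192B and EFM192C were close and EFM192A was lower. ERBB2 itself was 13.68, 13.47 and 13.45. The proliferation marker MKI67 was 8.14, 9.57 and 9.82, and its part in the CDC6 levels was not tested. EFM192A was also 1 of the 3 arrays with the widest spread of relative log expression (interquartile range 0.63, where the 58 arrays lay between 0.45 and 0.64), and its part in these differences was not tested.

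**Figure D2:**
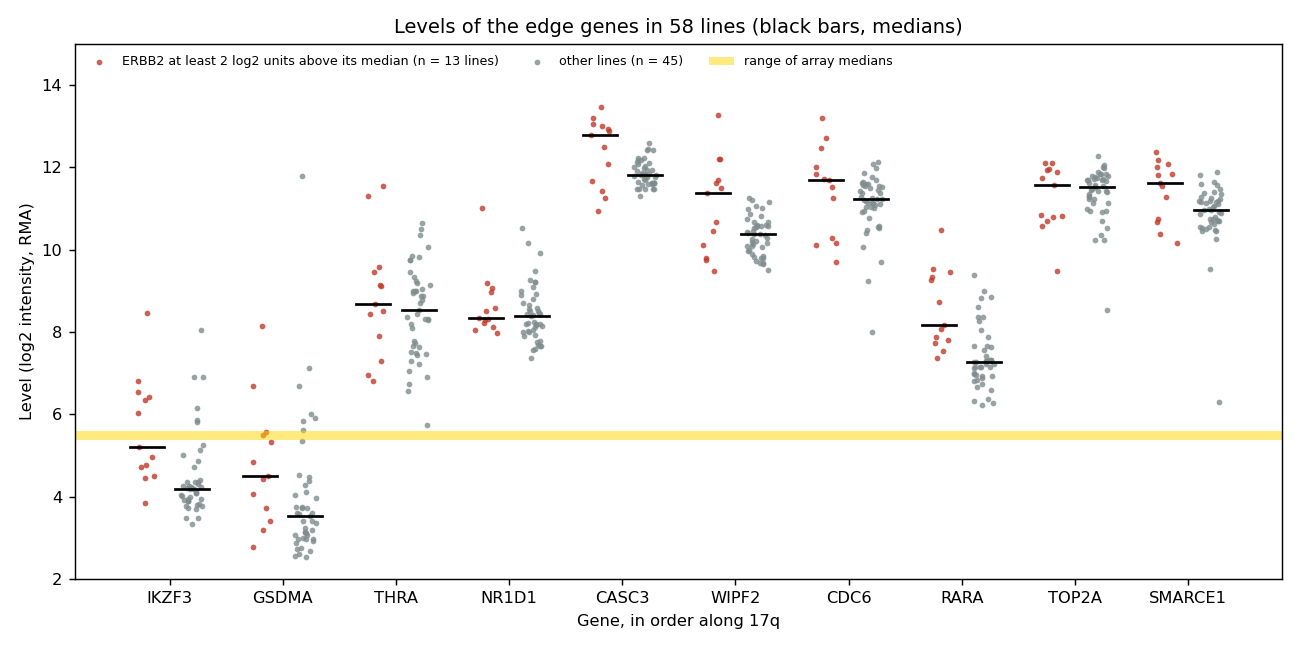
Level of the 10 edge genes (log2 intensity) in each of 58 lines, with the 13 ERBB2-high lines left and the other 45 lines right, black bars at the medians of lines and the range of array medians as a band. For CASC3 the ERBB2-high median is 12.79 against 11.81 in the other lines, and for TOP2A the medians are 11.58 and 11.51. Heights are not comparable between genes, since probes differ.

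To use all lines without a threshold, the level of every gene was fitted on the ERBB2 level over the 50 units with limma, and p-values were adjusted over all 14650 genes tested (Benjamini-Hochberg). A slope is the change in a gene's log2 level per log2 unit of ERBB2. The edge genes with a positive slope at an adjusted p under 0.05 were CASC3, WIPF2 and RARA, 3 of 10, where 12.3% of all genes were positive. None of the 10 was negative, where 8.96% of all genes were, and at that rate 0 of 10 is no result about them. The median slope was 0.14 over the edge genes, 0.24 over 23 other detected genes of the region (12 positive, 0 negative) and 0.01 over all genes. With all 58 lines as separate units, IKZF3 (adjusted p = 0.0143) and SMARCE1 (adjusted p = 0.0166) were also called, for 5 of 10, where 16.1% of all genes were positive.

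**Figure D3:**
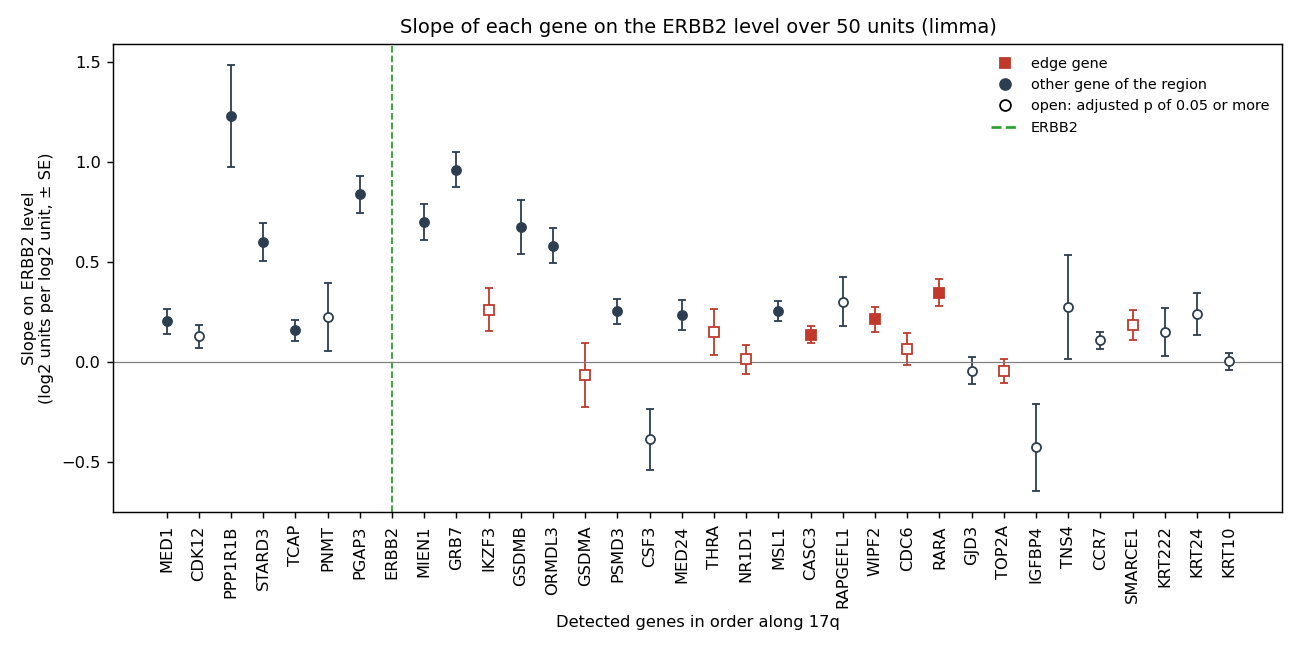
Slope of each detected gene of the region on the ERBB2 level over 50 units (log2 units per log2 unit, bars ± SE), in order along 17q, with edge genes as squares and filled symbols for an adjusted p under 0.05. Slopes are 0.96 for GRB7 and 0.84 for PGAP3 beside ERBB2, and from -0.06 for GSDMA to 0.35 for RARA among the edge genes.

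Of the genes with general roles, CASC3 (a subunit of the exon junction complex, which marks spliced mRNA) ranged from 10.94 over a median of 12.79 to 13.47 in the ERBB2-high lines, against 11.30, 11.81 and 12.59 as lowest, median and highest of the other lines. The groups overlapped, and 6 ERBB2-high lines but 0 of 45 other lines were high. The 6 were UACC893, AU565 with SKBR3, and EFM192A with EFM192B and EFM192C, so most of them share an origin with another. Its second probe set added OCUBM among the ERBB2-high lines and VP267 among the others. Its slope was 0.14 ± 0.04 (SE, n = 50 units, adjusted p = 0.0167). This call was lost without UACC893, where the slope was 0.11 and the adjusted p = 0.0551, just over the threshold.

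WIPF2 (a protein that binds WASP proteins, which drive actin assembly) had 9.47, 11.38 and 13.28 as lowest, median and highest level in the ERBB2-high lines, against 9.51, 10.38 and 11.27 in the other lines. The ranges overlapped at their lower ends, and again 6 of 13 lines but 0 of 45 were high. The 6 were UACC893, OCUBM, AU565 with SKBR3 of the same origin, and EFM192A with EFM192C of the same origin. In its other 3 probe sets 4, 7 and 7 ERBB2-high lines and 2, 1 and 1 other lines were high. The slope on ERBB2 was 0.21 ± 0.06 (SE, adjusted p = 0.00950), and it stayed past the threshold in 15 of 15 alternative settings, including the fit without UACC893.

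SMARCE1 (a subunit of the SWI/SNF complex, which remodels chromatin) had 10.16, 11.62 and 12.37 in the ERBB2-high lines, against 6.29, 10.96 and 11.89 in the other lines. The groups overlapped, with 3 high lines of 13 and 0 of 45, and in the other probe sets with 5 and 7 high lines (13 and 45) in one and 4 and 0 in the other. Its slope of 0.18 ± 0.08 (SE) missed the threshold (adjusted p = 0.0759), and it passed with the mean of its probe sets (adjusted p = 0.0440). The value of 6.29 was that of BT549, 4.72 log2 units below the median, and the next lowest line was VP229 at 9.54.

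BT549, a line with low ERBB2 (9.47), was low for SMARCE1 in a second probe set as well, at 6.01 and 4.40 below that probe set's median. The third probe set, which followed the one used with r of only 0.37 over units, was 6.62 and 0.76 below its median. TOP2A, the edge gene next to it, was at 11.24 in BT549, with a median of 11.50 over units.

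Of the nuclear receptors, RARA (a receptor for retinoic acid that acts as a transcription factor) had the steepest slope of the 10. Its lowest, median and highest levels were 7.36, 8.18 and 10.48 in the ERBB2-high lines, against 6.23, 7.26 and 9.38 in the other lines. The ranges overlapped widely, with 6 of 13 and 7 of 45 lines high. The 6 were OCUBM, AU565 with SKBR3, and EFM192A with EFM192B and EFM192C, so most of them share an origin with another. The slope was 0.35 ± 0.07 (SE, adjusted p = 0.000215), and it was called in 15 of 15 alternative settings, with adjusted p between 1.06e-05 and 0.00101.

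The 7 lines with high RARA outside the ERBB2-high set were MDAMB175VII, CAMA1, ZR751, CAL148, HCC38, BT20 and T47D. With the probe sets used, CASC3, WIPF2, CDC6 and SMARCE1 were high in 0 of the 45 other lines, and so in none of these 7. That count depended on the probe set: WIPF2 was high in T47D in 2 of its other 3 probe sets, SMARCE1 was high in MDAMB175VII in 1 of its other 2, and each of the 4 genes had at least 1 other probe set with a high line outside the ERBB2-high set.

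The ESR1 level, that of the oestrogen receptor, formed 2 clusters of 21 and 29 units, so genes were fitted on it with the cluster as a term. No edge gene was called with this fit (0 of 10 in either direction, where 0.594% of all genes were positive and 0.239% negative). RARA was the closest, with a slope of 0.14 ± 0.07 per log2 unit of ESR1 (SE, adjusted p = 0.316, unadjusted p = 0.0527).

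THRA (a receptor for thyroid hormone) had 6.80, 8.69 and 11.56 as lowest, median and highest level in the ERBB2-high lines, against 5.73, 8.54 and 10.64 in the other lines. With the probe set used the groups overlapped almost fully. Of the ERBB2-high lines 4 were high (AU565, UACC893, OCUBM, EFM192C) and 3 were low (HCC1954, MDAMB361, MDAMB453), and of the other lines 9 were high and 7 low. Of these 9 lines 4 (FR2, HS739T, HS362T and HS605T) are among the lines with all fibroblast markers described under NR1D1, and the part of those markers in the THRA levels was not tested. In the other 3 probe sets 4, 3 and 3 ERBB2-high lines and 1, 9 and 3 other lines were high. SKBR3 was high in the first and the last of these. The high lines outside the ERBB2-high set were MT3 alone in the first, and MT3, HS739T and NM2C5 in the last. The slope of 0.15 ± 0.11 (SE) on ERBB2 was not called (adjusted p = 0.380).

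NR1D1 (REV-ERB alpha, a haem-binding repressor of the circadian clock) lies against THRA on the opposite strand, and the ends of both genes overlap. It had 7.97, 8.34 and 11.00 in the ERBB2-high lines, against 7.36, 8.38 and 10.53 in the other lines. The groups overlapped, UACC893 alone was high among the 13, and 4 of the 45 other lines were (HS605T, HS739T, HS579MG and VP267). The first 3 of these 4 are among 6 lines, with HS362T, HS578T and FR2, in which all 5 fibroblast markers (COL1A1, COL1A2, PDGFRB, POSTN, LUM) were above the array median. Their summed level lay between 58.7 and 64.7 in these 6 lines, against 18.6 to 54.4 in the other 52, and its part in the NR1D1 levels was not tested. The slope was 0.01 ± 0.07 (SE, adjusted p = 0.930). The probe sets used name 1 gene each, and the probe sets that name both were left out.

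IKZF3 (Aiolos, a zinc finger transcription factor known from lymphocytes) was above the array median in 12 lines only. Levels in the ERBB2-high lines were 3.83, 5.20 and 8.46 (lowest, median, highest), against 3.33, 4.19 and 8.04 in the other lines. OCUBF was the highest line, DU4475 the next, and the groups overlapped. High lines were 6 of 13 and 6 of 45. The slope of 0.26 ± 0.11 (SE) missed the threshold (adjusted p = 0.0736), and it was 0.35 with an adjusted p of 0.00594 without DU4475.

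In none of the 58 lines did the leukocyte markers CD79A, MS4A1, CD3E or PTPRC pass the array median. The 4 probe sets of IKZF3 did not all tell the same story: the other 3 followed the one used with r between 0.44 and 0.91 over the 50 units, and in them 0, 5 and 1 ERBB2-high lines were high.

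GSDMA (a gasdermin, a pore-forming protein best known from skin) was above the array median in 11 lines. It had 2.77, 4.51 and 8.14 in the ERBB2-high lines, against 2.52, 3.52 and 11.78 in the other lines. The highest level was again that of DU4475, outside the ERBB2-high lines, and the groups overlapped. High lines were 6 of 13 and 8 of 45. The 8 were DU4475, HMT3522T42 with HMT3522S1 of the same origin, MCF102A, MCF12A, SW527, MDAMB436 and VP267. The slope on ERBB2 was -0.06 ± 0.16 (SE, adjusted p = 0.811). Over 14 alternative settings it lay between -0.09 and 0.10 and was called in 0. The Pearson r with ERBB2 was -0.06, and 0.12 without DU4475, so its sign rested on that line.

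Both remaining genes serve DNA replication and division. CDC6 (a protein that loads the replicative helicase onto origins) had 9.69, 11.71 and 13.19 in the ERBB2-high lines, against 7.998, 11.23 and 12.14 in the other lines. The groups overlapped, and with the probe set used the high lines were UACC893, SKBR3 and AU565, all ERBB2-high, while ZR7530, EFM192A and MDAMB453 were low. Both other CDC6 probe sets counted differently: OCUBF and HCC1954 were high as well, for 5 of 13, and VP267, HCC1806, MT3 and SVCT made 4 of 45 other lines high. The slope on ERBB2 was 0.07 ± 0.08 (SE, adjusted p = 0.606).

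TOP2A (DNA topoisomerase II alpha, which untangles DNA in dividing cells) had 9.47, 11.58 and 12.11 in the ERBB2-high lines, against 8.54, 11.51 and 12.27 in the other lines. The groups overlapped. No line of the 58 was high with the probe set used, and in its second probe set SKBR3 and FR2 were. Its slope on ERBB2 was -0.05 ± 0.06 (SE, adjusted p = 0.626), and the lowest ERBB2-high line was UACC893.

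The promoters of CDC6 and TOP2A are shown because these were the 2 edge genes called on the proliferation marker MKI67 over all units, as the next comparison gives. They come from RefSeq (GRCh38.p14), from 250 bases before the transcript start to 50 after, and are written 5′ to 3′ on the strand of the gene. The CDC6 window is chr17:40287629-40287928 on the plus strand, and the TOP2A window is chr17:40417847-40418146 on the minus strand. Capitals mark matches on either strand to CCAAT, the box bound by NF-Y. They also mark the E2F motif, searched as TTTGGCGC and as TTTCGCGC. The last motif marked is TTTGAA, an element of cell cycle genes.
CDC6: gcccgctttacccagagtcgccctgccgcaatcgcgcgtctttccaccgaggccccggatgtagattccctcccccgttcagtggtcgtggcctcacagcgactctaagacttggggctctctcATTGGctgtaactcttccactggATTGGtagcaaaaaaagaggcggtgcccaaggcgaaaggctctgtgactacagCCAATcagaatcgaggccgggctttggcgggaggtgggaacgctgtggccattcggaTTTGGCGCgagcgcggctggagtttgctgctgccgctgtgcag
TOP2A: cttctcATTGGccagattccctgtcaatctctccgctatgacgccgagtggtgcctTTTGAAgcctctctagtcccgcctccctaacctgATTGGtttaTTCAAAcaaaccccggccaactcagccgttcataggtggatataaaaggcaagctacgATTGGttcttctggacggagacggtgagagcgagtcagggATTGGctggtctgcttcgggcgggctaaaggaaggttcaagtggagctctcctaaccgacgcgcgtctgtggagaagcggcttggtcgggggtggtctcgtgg

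The CDC6 window held 3 matches to CCAAT, of which 2 were on the opposite strand, and 1 match to TTTGGCGC on the gene's strand. The TOP2A window held 4 matches to CCAAT, all on the opposite strand, where the match reads ATTGG, and 2 matches to TTTGAA, 1 on each strand. No 2 of the marked matches overlap. Of 35116 promoters of the same length, 34.6% held CCAAT and 3.26% held 3 or more, 15.2% held TTTGAA, and 1.15% held either E2F motif. CACGTG (an E-box), held by 7.26% of promoters, matched in neither window. A match describes letters and does not show that a factor binds there. Promoters were present for 8 of the 10 genes, with 3 for RARA. CCAAT also had 1 match each in the promoters of NR1D1, WIPF2 and SMARCE1 and in 1 of the 3 for RARA. Neither E2F motif nor TTTGAA matched in the promoters of the edge genes other than CDC6 and TOP2A.

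Transcripts of replication genes follow proliferation, so the edge genes were also fitted on MKI67, the gene of the proliferation marker Ki-67. CDC6 and TOP2A had positive slopes, 2 of 10 edge genes, where 4.29% of all genes were positive, and 0 of 10 were negative, where 1.54% were. The slope of TOP2A was 0.46 ± 0.08 per log2 unit of MKI67 (SE, n = 50 units, adjusted p = 0.000163), and it was called in 15 of 16 alternative settings. The slope of CDC6 was 0.49 ± 0.13 (SE, adjusted p = 0.0121). CDC6 was not called with the mean of probe sets (adjusted p = 0.0591), with array quality as a term (adjusted p = 0.151), or when HS362T, MB157 and EFM192A, the 3 arrays of widest spread, were left out (slope 0.33, adjusted p = 0.172).

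These calls were not made without the lines that had fibroblast markers. HS362T, HS605T and HS739T, 3 of the 6 lines with all 5 markers above the array median, had an MKI67 of 8.13, 8.35 and 8.68 and a CDC6 of 7.998, 9.24 and 9.70. Without the 6 lines the slope of CDC6 on MKI67 was 0.15 (adjusted p = 0.610) and that of TOP2A 0.41 (adjusted p = 0.0524), so that 0 of 10 edge genes were called, where 0.387% of all genes were positive. The slopes on ERBB2 alone stayed past the threshold without these lines, for CASC3 (adjusted p = 0.0399), WIPF2 (adjusted p = 0.0268) and RARA (adjusted p = 0.00101).

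Fitted together, the ERBB2 and MKI67 levels gave the same 3 edge genes on ERBB2 (CASC3, WIPF2 and RARA, where 13.4% of all genes were positive and 10.1% negative) and the same 2 on MKI67 (where 5.37% were positive and 2.51% negative). The slope of CDC6 on ERBB2 beside MKI67 was 0.14 ± 0.07 (SE, adjusted p = 0.142). For TOP2A the slope on MKI67 beside ERBB2 was 0.47 ± 0.09 (SE, adjusted p = 0.000188). Without the 6 lines with all fibroblast markers, 1 edge gene, RARA, was positive on ERBB2 beside MKI67 (5.14% of all genes), since CASC3 (adjusted p = 0.0754) and WIPF2 (adjusted p = 0.0941) were not called, and 0 were called on MKI67 beside ERBB2.

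UACC893 and VP229 stood low for TOP2A. UACC893 was at 9.47 with an MKI67 of 8.87, which is 1.18 log2 units below the MKI67 median. VP229 was at 8.54, the lowest TOP2A of the 58 lines, and its MKI67 of 7.48 was also the lowest. The second TOP2A probe set was low in both lines too, at 5.94 in UACC893 and 4.48 in VP229. VP267, of the same origin as VP229, had a TOP2A of 11.24 and an MKI67 of 11.33, so VP229 and VP267 differed in both genes.

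**Figure D4:**
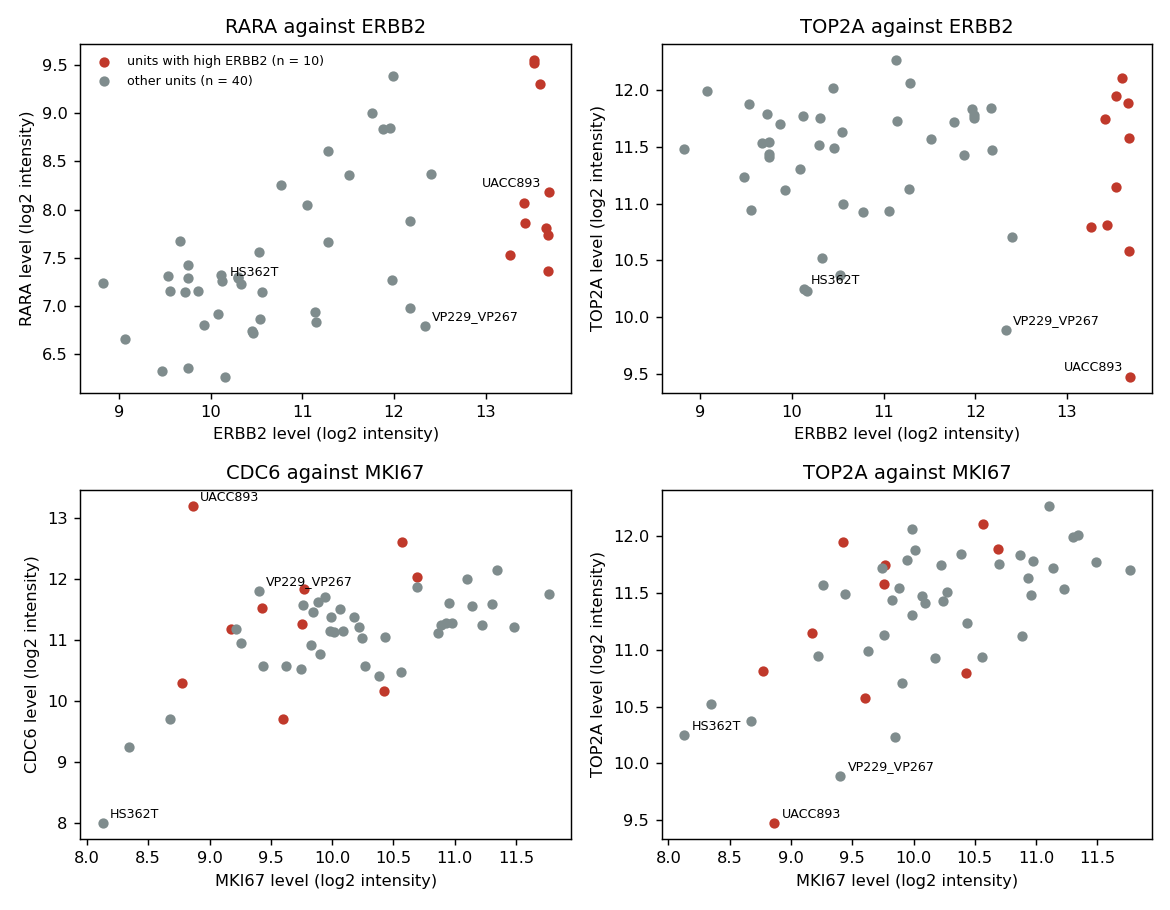
Levels (log2 intensity) of RARA and TOP2A against ERBB2 in the top panels and of CDC6 and TOP2A against MKI67 in the lower panels, each point 1 of 50 units, 10 of them with high ERBB2 and 40 others. RARA rises with ERBB2 (slope 0.35) while TOP2A does not (slope -0.05), and CDC6 in UACC893 lies above the other units at a low MKI67.

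How neighbours along 17q resembled each other was described by the correlation of their levels over the 50 units, which share arrays and normalization. CASC3 and WIPF2 were the most alike consecutive edge genes (Pearson r = 0.83, Spearman rho = 0.69, and r = 0.78 without UACC893). Of 14607 pairs of neighbouring detected genes in the genome, the median r was 0.25 and the 95th percentile 0.68, so this pair lay in the upper tail. Those pairs are directly adjacent among detected genes. Consecutive edge genes often are not, with RAPGEFL1 between CASC3 and WIPF2, for example, and MSL1 between NR1D1 and CASC3. The median over the 9 consecutive edge pairs was 0.31, and it is not like for like with the median of adjacent genes.

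The remaining pairs were WIPF2 with CDC6 (r = 0.46), THRA with NR1D1 (0.43), TOP2A with SMARCE1 (0.31, and 0.50 without BT549), IKZF3 with GSDMA (0.31, and 0.04 without DU4475), NR1D1 with CASC3 (0.16), RARA with TOP2A (0.12), CDC6 with RARA (0.06) and GSDMA with THRA (0.01). The 2 pairs that hold RARA were thus among the 4 lowest of the 9.

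For each edge gene, the 3 detected genes with the highest r over the 50 units were listed. The 3 most like CASC3 were WIPF2 (0.83), MSL1 (0.78) and MED24 (0.77), and the 3 most like WIPF2 were CASC3, MSL1 (0.81) and PSMD3 (0.79), all in the same stretch of 17q. THRA had 1 gene of the region among its 3, CASC3 (0.56). For the other 7 edge genes none of the 3 most alike genes was among the listed genes of the region.

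TOP2A was most like CENPE (0.79), a kinesin of the kinetochore, KIF18B (0.77) and GAS2L3 (0.75). CDC6 was most like AUNIP (0.76), TOMM40 (0.74) and DDIAS (0.72). RARA was most like MMEL1 (0.76), RND1 (0.72) and RGL2 (0.68). SMARCE1 was most like EIF2D (0.77), where Spearman rho was 0.26. The rank correlation of that pair is far smaller than its Pearson r, and BT549 is the unit with the extreme SMARCE1 level.

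Over units, GSDMA varied most (SD 1.65 log2 units, above 83.6% of detected genes), followed by THRA (1.20) and IKZF3 (1.16). CASC3 varied least (0.48, above 25.7% of detected genes), with TOP2A next (0.61, above 41.4%). The median SD of detected genes was 0.70. The same 2-fold threshold was applied to all of them, so it is wider against the spread of CASC3 and TOP2A than against that of GSDMA, THRA or IKZF3.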

How the data were processed

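The deposited values are log2 intensities of 52377 probe sets, which the authors made with RMA in Affymetrix Power Tools, per the submitters' processing notes, with versions not stated. Per the labels, lines grew untreated as vendors recommend, and total RNA was NuGEN-amplified and biotin-labelled. Whether all arrays were normalized together is not stated in the sources used here. Array medians lay between 5.37 and 5.58, and this number of arrays, 1 per line, limits the precision.

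Probe sets naming 1 gene (35184) were used without further normalization, and those naming several (374) were left out. The probe set with the highest mean stood for a gene. Of 19798 genes, 14651 were detected. Lines of common origin were averaged (50 units), from textbook knowledge, since the labels give no groups. Slopes were fitted over units with limma 3.58.1 (R 4.3.3, trend and robust), 2-sided, adjusted over all genes tested except the predictor (Benjamini-Hochberg). A measure had separate clusters if a mixture of 2 components (mclust 6.1.1) gained over 10 BIC units on 1 component and Ashman's D passed 2. ESR1 did, ERBB2 and MKI67 did not, so a fit within ERBB2 clusters was not made. The steps were tested on simulated data over 14650 genes. Of 100 planted slopes of 0.5, the ERBB2 fit recovered 81, the MKI67 fit 59 and the ESR1 fit 82. At 0.25 they recovered 50, 21 and 47. Of the genes without a planted slope, these fits called 7, 2 and 6. The simulated noise was normal and independent between genes, whereas the levels of real genes are correlated.

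The members, lists and rules were chosen with earlier results of these data known. Named were every edge gene, ERBB2, MKI67 and ESR1, the 3 genes most like each edge gene, the listed neighbours on 17q, and lines or probe sets singled out after their values were seen. The settings varied were the summary of a gene (mean over its probe sets, or without marked cross-hybridising ones), a repeated quantile normalization, the units (58 lines), the lines kept (without 4 of other origin, or without the 3 arrays of widest spread), an added term for array quality, the filter, the thresholds, the eBayes options and the cluster term. Chosen after seeing the data were the fits without UACC893, DU4475 or BT549, without the 6 lines with all fibroblast markers and with OCUBF and OCUBM as 1 unit, the counts by single probe set, and the demand that a high gene also pass the array median.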

Additional observations from a re-analysis of the deposited data

How the results depend on the processing

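No paired analysis was possible because every line has 1 array and the labels number no replicates. A fit within ERBB2 clusters was not run, since none were found. Among edge genes, the call of CASC3 on ERBB2 was lost without UACC893 (adjusted p = 0.0551), and that of CDC6 on MKI67 under 4 of 16 alternatives, and that of TOP2A on MKI67 under 1 of 16. No call reversed its sign under any alternative run. With all 58 lines as units, 5 edge genes were positive on ERBB2, alone (16.1% of all genes) and beside MKI67 (16.2%), and on MKI67 983 genes were positive and 505 negative. Beside MKI67, 5 edge genes were positive on ERBB2 also with the mean of probe sets (13.5% of all genes) and without DU4475 (14.3%). On MKI67 beside ERBB2, 1 edge gene (NR1D1) was negative with the mean of probe sets (1.99% of all genes) and without DU4475 (2.23%). Without the 3 widest arrays 1 edge gene, TOP2A, was positive, with 327 genes positive and 67 negative, and with array quality as a term again 1, with 417 and 134. On MKI67 alone, 1 edge gene was positive and 1 negative with the mean of probe sets (4.19% and 1.13% of all genes). It was 1 positive without the 3 widest arrays (313 genes positive, 68 negative) and 1 with array quality as a term (301 and 59). On ESR1, genes with a positive slope were 148 with the mean of probe sets, 279 with 58 lines and 657 without the cluster term, and negative ones were 134 with 58 lines, 21 without the 3 widest arrays, 16 without a filter and 332 without the cluster term. Without the 6 lines with all fibroblast markers, 1 edge gene was positive on ERBB2 beside MKI67, with 743 genes positive and 539 negative, and 0 edge genes were positive on MKI67 alone, with 56 and 12. On MKI67 beside ERBB2 limma then called 0 genes in either direction, among them 0 edge genes, with 544 positive and 435 negative at an unadjusted p under 0.05, and on ESR1 it called 52 and 17. With OCUBF and OCUBM as 1 unit the ESR1 fit called 445 and 224, and the edge genes called on ERBB2 and on MKI67 were the same. At a threshold of 1.5 log2 units, 18.5% of pairs of an edge gene and an ERBB2-high line were high, against 6.22% of pairs of any detected gene. No probe set was marked for cross-hybridisation, so leaving such probe sets out changed nothing. MKI67 had no clusters, so dropping the cluster term changed nothing on MKI67 either. These runs repeat the main fit, although the counts of alternative settings given for single genes include them. The causes of these shifts were not tested. IKZF3 and GSDMA were below the array median in most lines, RNA levels do not give copy number, and 13 ERBB2-high lines from 10 units are few.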

Other observations

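DU4475, a line with an ERBB2 level of 9.07, had the highest GSDMA (11.78) and the second highest IKZF3 (8.04) of the 58 lines, and its PNMT, which encodes the enzyme that makes adrenaline, was also the highest at 12.09. Its TCAP, which encodes telethonin of muscle, was the second highest at 8.53. All 4 genes lie near ERBB2 on 17q, and 13% of all detected genes were high in DU4475.

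IGFBP4, which encodes a binding protein of insulin-like growth factors and lies between TOP2A and SMARCE1, was low in 8 of 13 ERBB2-high lines (AU565, UACC893, HCC1954, OCUBM, SKBR3, EFM192B, OCUBF and MDAMB453) and in 15 of 45 other lines. It was high in 4 of the 13, ZR7530, EFM192A, EFM192C and MDAMB361, and in 13 of 45 other lines. Of all detected genes, 13.9% were high in at least 4 of the 13 lines. The share low in at least 8 was not counted. AU565 and SKBR3 share an origin, as do EFM192A, EFM192B and EFM192C, so these counts hold fewer units than lines. The SD of IGFBP4 over units was 2.36 log2 units, where the median SD of detected genes was 0.70. The threshold of 1 log2 unit is therefore narrow against its spread. KRT222 was high in 6 of the 13 ERBB2-high lines and in 8 of 45 others, with its highest level in EFM192C at 8.52.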
